A study of Mus musculus with 19 samples.

Results

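The genes described here are those of the mouse mitochondrial chromosome. They were taken from a gene-by-library table of read counts as every gene whose identifier, without its version, lies on chromosome M in the GENCODE M21 annotation, which are also the genes whose symbols begin with mt-. This gave 33 of the 26506 genes in the table: 13 messenger RNA (mRNA) genes, 2 ribosomal RNA (rRNA) genes and 18 transfer RNA (tRNA) genes. The annotation holds 37 mitochondrial genes, and the tRNA genes mt-Tf, mt-Td, mt-Tk and mt-Ts1 are not analysed here. Poly(A)-selected RNA from homogenized kidney and liver of male mice was sequenced in 19 libraries. Wild-type animals and animals homozygous for a knockout of macroH2A1.1, an isoform of the histone variant macroH2A1, came from matings of heterozygotes on a C57BL/6J background (at least 10 generations of backcrossing). The knockout allele had been made by treating zygotes that carried a floxed exon 6b with soluble Cre enzyme, so the deletion was in the whole animal rather than in 1 cell type. The groups were knockout kidney (5 libraries, mice 13, 14, 15, 16 and 18), wild-type kidney (5, mice 19, 20, 22, 23 and 24), knockout liver (5, the same numbers as in kidney) and wild-type liver (4, mice 19, 20, 22 and 24). A standard and a ketogenic diet are named in the labels without saying which mouse received which, and the ages of the mice are not given in the sources used here. Values below are listed in the order of these mouse numbers.

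The mitochondrial genome is a small circle that encodes core subunits of complexes I, III, IV and V of oxidative phosphorylation, together with the rRNAs and tRNAs used to translate them. Each strand is transcribed as a long precursor, and tRNAs lying between most of the other genes are cut out to release the mRNAs and rRNAs, so genes of 1 strand share a primary transcript and their mature levels are set largely by processing and stability. In the table, 25 of the 33 genes belong to the heavy-strand unit and 8 to the light-strand unit, whose only mRNA is mt-Nd6. Most mitochondrial mRNAs receive a short poly(A) tail from the mitochondrial poly(A) polymerase, mt-Nd6 is known for lacking a stable one, and mature tRNAs end in an added CCA, so poly(A) selection samples these classes unequally. Kidney tubules and hepatocytes are both rich in mitochondria.

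Levels are given in CPM, counts scaled to library size with edgeR's trimmed mean of M-values (TMM). Library totals were 25919138 to 35131720 counts in kidney and 26084473 to 34806035 in liver. The tissue labels held against their defining markers: the summed level of 8 hepatocyte genes was 821 to 1063 CPM in kidney and 127986 to 168037 in liver, and that of 8 proximal tubule genes was 21025 to 26739 in kidney and 15.996 to 27.4 in liver. The targeted gene, H2afy, was at 36.05 to 44.3 CPM in knockout kidneys against 48.8 to 67.04 in wild-type kidneys, and at 59.5 to 72.7 in knockout livers against 73.8 to 121 in wild-type livers. No knockout library reached the lowest wild-type library of its tissue, but the log2 differences of -0.58 and -0.61 had adjusted p-values of 0.135 and 0.384, and a gene-level count covers both isoforms. Several knockout libraries had outlying values in mitochondrial transcripts: the kidney of mouse 18, both tissues of mouse 14 and the liver of mouse 13. Outlying values were found in 12 of 188 groups examined, where chance gives about 5%, so these libraries are not read as different beyond chance. Their values are given beside the results they touch. Since the labels give each animal a number and little more, a p-value here speaks of the spread among the libraries sequenced.

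Mitochondrial mRNAs took a larger share of the counts in kidney than in liver. In knockout kidneys the 13 mRNAs held 9.36, 7.41, 6.81, 9.14 and 5.81% of all counts, and in wild-type kidneys they held 6.99, 8.20, 9.34, 8.74 and 7.59%. In knockout livers the share was 3.92, 3.21, 2.20, 2.36 and 1.81%, and in wild-type livers it was 2.40, 2.67, 3.36 and 3.38%. Every kidney library lay above every liver library, and the genotypes overlapped in both tissues. The group means were 8.17 ± 0.927% (SD, n = 5) in wild-type kidney, 7.71 ± 1.52% (n = 5) in knockout kidney, 2.95 ± 0.496% (n = 4) in wild-type liver and 2.70 ± 0.851% (n = 5) in knockout liver. In bulk tissue, fewer cells of a type and less RNA per cell cannot be told apart, and a share of counts also depends on how much the other transcripts of the tissue take up. The 2 rRNAs together held 0.134 to 0.334% of counts in kidney and 0.120 to 0.247% in liver, ranges that overlapped. The 18 tRNAs held 0.00860 to 0.0270% in kidney and 0.0141 to 0.0291% in liver, again overlapping. Relative to the mRNAs, both classes were more abundant in liver: 14.8 to 32.9 tRNA counts per 10000 mRNA counts in kidney against 43.8 to 159 in liver, with no overlap, and 1.43 to 4.40 rRNA counts per 100 mRNA counts in kidney against 3.51 to 11.6 in liver, with overlap.

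**Figure D1:**
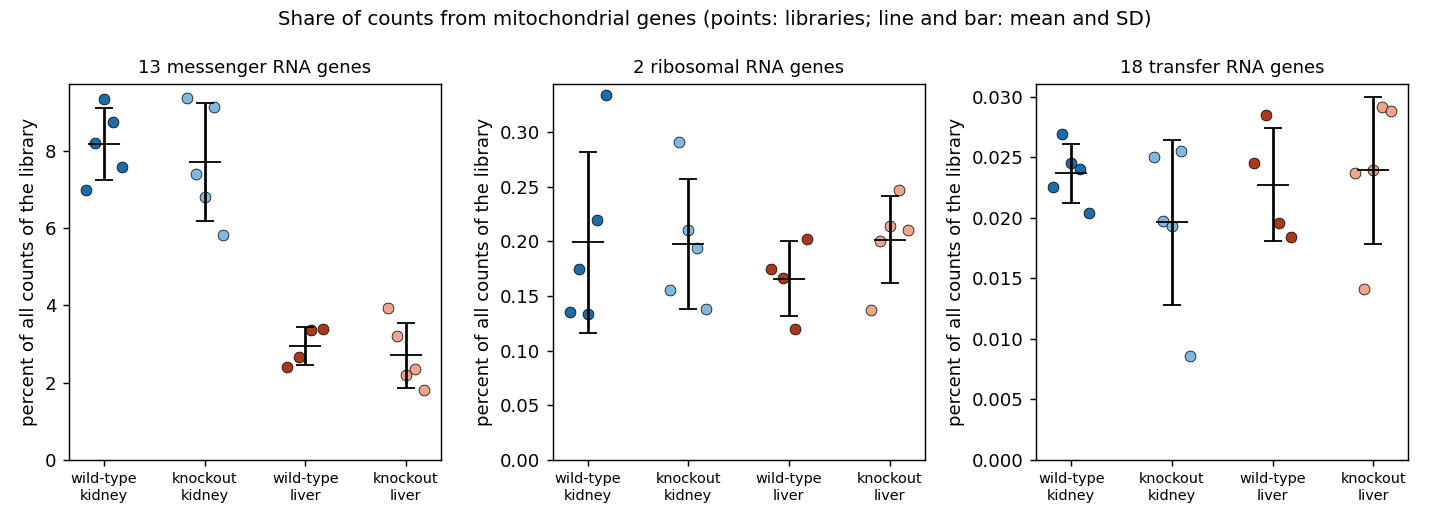
Percent of all counts of each library held by the mitochondrial mRNAs, rRNAs and tRNAs (vertical axes, percent), by tissue and genotype, with 1 point per library and the group mean. The mRNA share of the kidney libraries (5.81 to 9.36%) lies wholly above that of the liver libraries (1.81 to 3.92%), while the rRNA and tRNA shares overlap between the tissues.

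The mRNAs fell into 2 sets by level. Between 99.4 and 99.8% of the mRNA counts of each library came from 7 genes: mt-Nd1, mt-Nd2, mt-Nd4, mt-Nd5 and mt-Nd6, subunits of the NADH dehydrogenase complex I, mt-Cytb, the cytochrome b of complex III, and mt-Co1, the catalytic subunit of cytochrome c oxidase (complex IV). The other 6, mt-Co2, mt-Co3, mt-Atp8, mt-Atp6, mt-Nd3 and mt-Nd4l, held 0.232 to 0.557%. Per kilobase of annotated length, the median levels in kidney were 11449 CPM for mt-Nd1, 11202 for mt-Co1 and 11139.7 for mt-Cytb, whose ranges over libraries overlapped (7856 to 12838, 8048 to 15079.6 and 6708 to 12682). Next came mt-Nd2 at 6329.8, mt-Nd4 at 5458, mt-Nd6 at 3885 and mt-Nd5 at 1636 CPM per kb, and the ranges of mt-Nd2 and mt-Nd4 overlapped as well. In liver the order by median was mt-Co1 (7398 CPM per kb), mt-Cytb (6784), mt-Nd1 (6267), mt-Nd2 (4536), mt-Nd4 (3021), mt-Nd6 (2195) and mt-Nd5 (625). In both tissues the places of mt-Nd4 and mt-Co1 in this order are uncertain, because part of each has an exact copy in another transcript, as described below. The set of 6 stood far lower on the same scale. mt-Nd3 was at a median of 146 CPM per kb in kidney and 172 in liver, mt-Co2 at 84.9 and 60.8, mt-Co3 at 50.6 and 49.8, and mt-Atp6 at 40.1 and 29.1. mt-Nd4l was at 20.5 and 25.3, and mt-Atp8, which overlaps mt-Atp6 by 43 bases, was lowest of the 13 at 3.08 and 0.960. The rRNAs mt-Rnr1 (12S) and mt-Rnr2 (16S) were at 617 and 505 CPM per kb in kidney and 1304 and 877 in liver, values that rest on poly(A)-selected RNA and not on total rRNA.

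**Figure D2:**
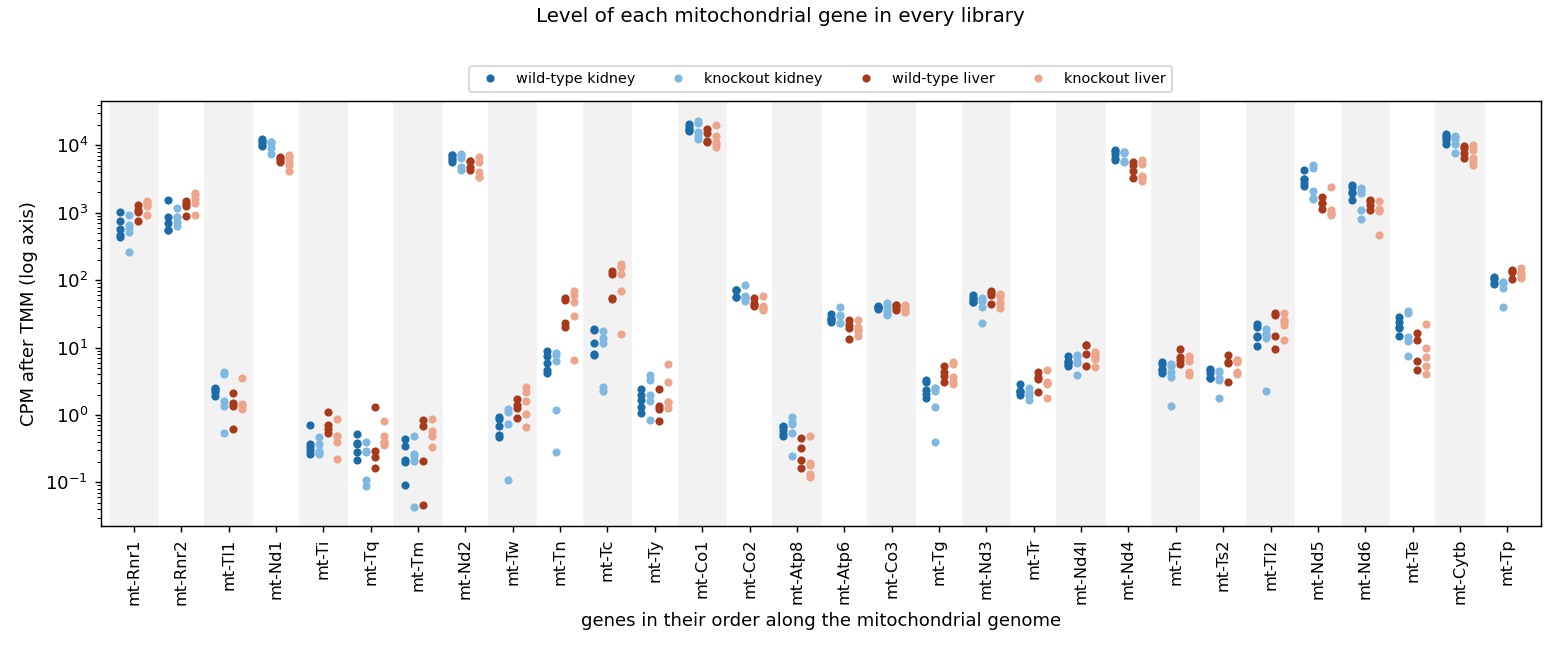
Level of each mitochondrial gene that passed the filter in kidney, tRNAs included, in CPM after TMM (log axis) and in genome order. Each library is 1 point coloured by tissue and genotype, and libraries without a count for a gene are not drawn. The mRNAs from mt-Co2 to mt-Nd4l lie below mt-Co1 and mt-Nd4 on either side of them in every library.

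The 3′ ends of the mRNA genes differ in how the stop codon is written, and are printed for 4 genes, 1 from the low set and 3 from the abundant set. In mitochondria a stop codon can be completed by the added poly(A) tail. The last 30 bases of the genes mt-Co3, mt-Nd4, mt-Cytb and mt-Co1 are given 5′ to 3′ from the GENCODE M21 transcripts, with the bases after the last whole codon in capitals in the first 3 and the last whole codon in capitals in mt-Co1:
mt-Co3: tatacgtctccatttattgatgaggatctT
mt-Nd4: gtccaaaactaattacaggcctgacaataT
mt-Cytb: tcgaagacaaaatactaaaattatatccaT
mt-Co1: gaggaaccaacctatgtaaaagtaaaaTAA
mt-Co3, mt-Nd4 and mt-Cytb have a single T left after the last whole codon, whereas mt-Co1 ends in a complete TAA. Of these 4 genes, the incomplete stop is thus seen in mt-Nd4 and mt-Cytb of the abundant set and in mt-Co3 of the low set. Whether the form of the stop codon goes with the level was not tested.

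The 6 mRNAs of the low set are the 6 that lie wholly inside a stretch of the mitochondrial genome most of whose mRNA genes have copies annotated on chromosome 1. A search of the mitochondrial transcripts against all GENCODE M21 transcripts (blastn, at least 200 aligned bases and 90% identity) found 7 pseudogene models, Gm29216, Gm28661, Gm10925, Gm28437, Gm28438, Gm10222 and Gm28439. They lie in this order on the minus strand between positions 24611535 and 24616197 of chromosome 1 (GRCm38) and line up with bases 6390 to 11042 of chromosome M, a span of 4653 bases. The distances between neighbouring aligned stretches are the same on both chromosomes (140, 233, 2, 69 and -4 bases), with 1 exception, 73 bases on chromosome M and 74 on chromosome 1. Gm28661 matched mt-Co2 over 681 bases, Gm10925 matched mt-Atp6 over 678, Gm28437 matched mt-Co3 over 783 and Gm10222 matched mt-Nd4l over 294, each with 0 mismatches. Gm28438 matched mt-Nd3 over 345 bases with 1 mismatch, Gm28439 matched the first 876 bases of mt-Nd4 with 0, and Gm29216 matched the last 483 bases of mt-Co1 with 1. Of the mRNAs in the span mt-Atp8 alone has no annotated copy model of its own, and it lies between the models of mt-Co2 and mt-Atp6. Only annotated transcripts were searched, so the chromosome 1 sequence between these models was not compared with mt-Atp8. The span also holds 5 tRNA genes, and 3 of them, mt-Ts1, mt-Td and mt-Tk, are among the 4 not analysed here.

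The share of each mRNA that can be told from a copy model was counted in windows of 100 bases. An exact match in another transcript was found for 99.5% of the windows of mt-Co2, 99.5% of mt-Atp6, 99.9% of mt-Co3, 97.6% of mt-Nd3 and 98.5% of mt-Nd4l, and for 0 of the 105 windows of mt-Atp8. Sequence outside annotated transcripts was not searched, so whether mt-Atp8 has a copy there was not tested. The abundant genes at the edges of the span were copied in part, 60.8% of windows in mt-Nd4 and 30.8% in mt-Co1, and the windows of mt-Nd1, mt-Nd5, mt-Nd6 and mt-Cytb had 0% and those of mt-Nd2 3.19%. Per 1000 windows without an exact copy, the kidney medians of mt-Co1 and mt-Nd4 were 17307 and 14982 CPM. The sources do not state how reads that fit more than 1 place were counted. The part that the copies play in the low counts was not tested. The first 28 bases of mt-Nd3 and its copy show how little separates the loci, with the substituted base in capitals:
mt-Nd3: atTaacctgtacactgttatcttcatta
Gm28438: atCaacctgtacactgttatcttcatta
The single substitution between them is T3C, counted from 1 at the 5′ end of the gene with the base of mt-Nd3 first. The first 90 bases of mt-Co2 and its copies on chromosomes 1 and 2 are shown because Gm28661 had more counts than mt-Co2 in every library. Capitals mark the bases at which mt-Co2 and Gm13341 differ:
mt-Co2: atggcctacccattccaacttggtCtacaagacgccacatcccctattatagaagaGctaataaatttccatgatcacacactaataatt
Gm28661: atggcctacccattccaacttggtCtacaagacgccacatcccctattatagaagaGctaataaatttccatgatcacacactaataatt
Gm13341: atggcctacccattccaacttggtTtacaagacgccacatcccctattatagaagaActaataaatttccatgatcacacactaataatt
mt-Co2 and Gm28661 are identical over this stretch, and Gm13341 differs from mt-Co2 by C25T and G57A. Counts for Gm28661 followed those for mt-Co2, with a ratio of 1.69 to 2.36 in all 19 libraries, and counts for Gm10925 stood at 0.812 to 1.17 times those for mt-Atp6. The levels of the 5 low mRNAs with copy models are therefore uncertain. So are those of mt-Nd4 and mt-Co1, which are copied in part, and their places in the order per kilobase. For mt-Atp8 the search gives no answer, because unannotated sequence was not compared.

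Wild-type kidney was compared with wild-type liver, and knockout kidney with knockout liver, in separate fits. Of the 33 genes, 30 passed the filter on low counts in kidney and 28 in liver, and 30 were tested in each tissue comparison. mt-Atp8 and mt-Tq passed within kidney and failed within liver. In wild-type mice 22 of the 30 passed the test, 12 higher and 10 lower in kidney. Across all 17428 genes tested 75.4% were called (41.6% higher and 33.9% lower), so a call as such says little about a mitochondrial gene. In knockout mice 16 of 30 were called, 7 higher and 9 lower, against 73.8% of 16823 genes (39.8% and 33.9%). The classes moved apart: 10 mRNAs were called higher in wild-type kidney and 1 lower, while 8 tRNAs and 1 rRNA were lower and 2 tRNAs higher. In knockout mice 7 mRNAs were called higher and 0 lower, and 7 tRNAs and 2 rRNAs were lower and 0 higher. The mRNAs called higher include mt-Atp8 in both genotypes, a gene that entered these fits through its kidney counts. The median log2 difference of the mRNAs was 0.50 in wild type and 0.58 in knockout, beside 0.14 and 0.099 over all genes, and that of the tRNAs was -0.51 and -0.68. These values depend on the scaling between tissues. With library totals in place of TMM the median of all genes shifted by 0.888 in wild type and 0.935 in knockout, and 84.2% of all calls were higher in kidney in wild type instead of 55.1% (84.5% instead of 54.0% in knockout). The mitochondrial calls then became 16 higher and 2 lower in wild type, and 15 higher and 2 lower in knockout. Values below are TMM-scaled unless library totals are named. Pairs and blocks by mouse number rest on the number in the labels. The kidney correlated best with the liver of its own number in 4 of 4 wild-type mice but in 2 of 5 knockout mice.

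Among the complex I genes, mt-Nd5 had the largest called difference of the 7 abundant mRNAs. mt-Nd5, which encodes a proton-pumping subunit, was at 5161, 1662, 2118, 4542 and 1625 CPM in knockout kidneys and 2526, 3155, 4252, 3218 and 2813 in wild-type kidneys. The livers had 2433, 998, 911, 1093 and 968 CPM in knockouts and 1139.6, 1374, 1696 and 1403 in wild type. All wild-type kidneys lay above all wild-type livers, and in knockouts the liver of mouse 13 reached into the kidney range. The log2 difference was 1.18 ± 0.16 (SE, adjusted p = 6.90e-06) in wild type and 1.22 ± 0.40 (SE, adjusted p = 0.0141) in knockout. Without mouse 16 the knockout value was 0.98 with an adjusted p of 0.0716. mt-Nd1, a subunit of the membrane arm, was at 10866, 11098, 9156, 11069.7 and 7518 CPM in knockout kidneys and 10044, 11047, 11637, 12286 and 9625 in wild-type kidneys. Levels in liver were 6639.7, 7284, 5699, 5162 and 4217 CPM in knockouts and 5596, 5998, 6508 and 6756 in wild type. No liver library of either genotype reached the lowest kidney library. Its difference was 0.81 ± 0.12 (SE, adjusted p = 1.89e-05) and 0.77 ± 0.18 (SE, adjusted p = 0.00119). mt-Nd4, another membrane-arm subunit, gave 0.70 ± 0.16 (SE, adjusted p = 0.00111) and 0.73 ± 0.21 (SE, adjusted p = 0.00587). The light-strand gene mt-Nd6 gave 0.63 ± 0.15 (SE, adjusted p = 0.00160) in wild type and 0.66 ± 0.32 (SE, adjusted p = 0.0834) in knockout, the second without a call, which it had with mouse number as a block (adjusted p = 0.00189). The same value for mt-Nd2 was 0.33 ± 0.13 (SE, adjusted p = 0.0345) in wild type, a call lost without mouse 19, 20 or 23, and 0.36 ± 0.22 (SE, adjusted p = 0.153) in knockout, where the block gave an adjusted p of 0.0285. Paired by mouse number, kidney was above liver in 9 of 9 mice for mt-Nd1, mt-Nd2, mt-Nd4, mt-Nd5 and mt-Nd6.

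mt-Cytb, the only mitochondrial gene of complex III, was at 13134, 12503, 10492, 13917 and 7673 CPM in knockout kidneys and 10613, 12985, 14509, 13586 and 11814 in wild-type kidneys. Levels in liver were 10051, 8593, 5797, 6491 and 5180.5 CPM in knockouts and 6452, 7761, 9698 and 9034 in wild type. Wild-type kidneys lay above all wild-type livers, and in knockouts the kidney of mouse 18 lay within the range of the livers. The log2 difference was 0.62 ± 0.14 (SE, adjusted p = 0.00117) in wild type and 0.66 ± 0.21 (SE, adjusted p = 0.0119) in knockout. Without mouse 16 the knockout value was 0.55 with an adjusted p of 0.0679. mt-Co1 of complex IV was at 23298, 12434, 15553, 21809 and 13767 CPM in knockout kidneys and 16426, 16939.6, 20997, 17675 and 19488 in wild-type kidneys. The livers had 19992, 13862, 10401, 11213 and 9305 CPM in knockouts and 11199, 11429.6, 15199.8 and 17615 in wild type. The tissues overlapped in both genotypes: the liver of wild-type mouse 24 lay above the kidneys of mice 19 and 20, and mouse 14 had less mt-Co1 in kidney than in liver. Its difference was 0.40 ± 0.15 (SE, adjusted p = 0.0289) in wild type, a call lost without mouse 19, 20 or 22, and 0.41 ± 0.24 (SE, adjusted p = 0.136) in knockout, no call. The differences of mt-Nd1, mt-Nd4, mt-Nd5 and mt-Cytb also had a positive sign with library totals, 1.70, 1.59, 2.07 and 1.51 in wild type.

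**Figure D3:**
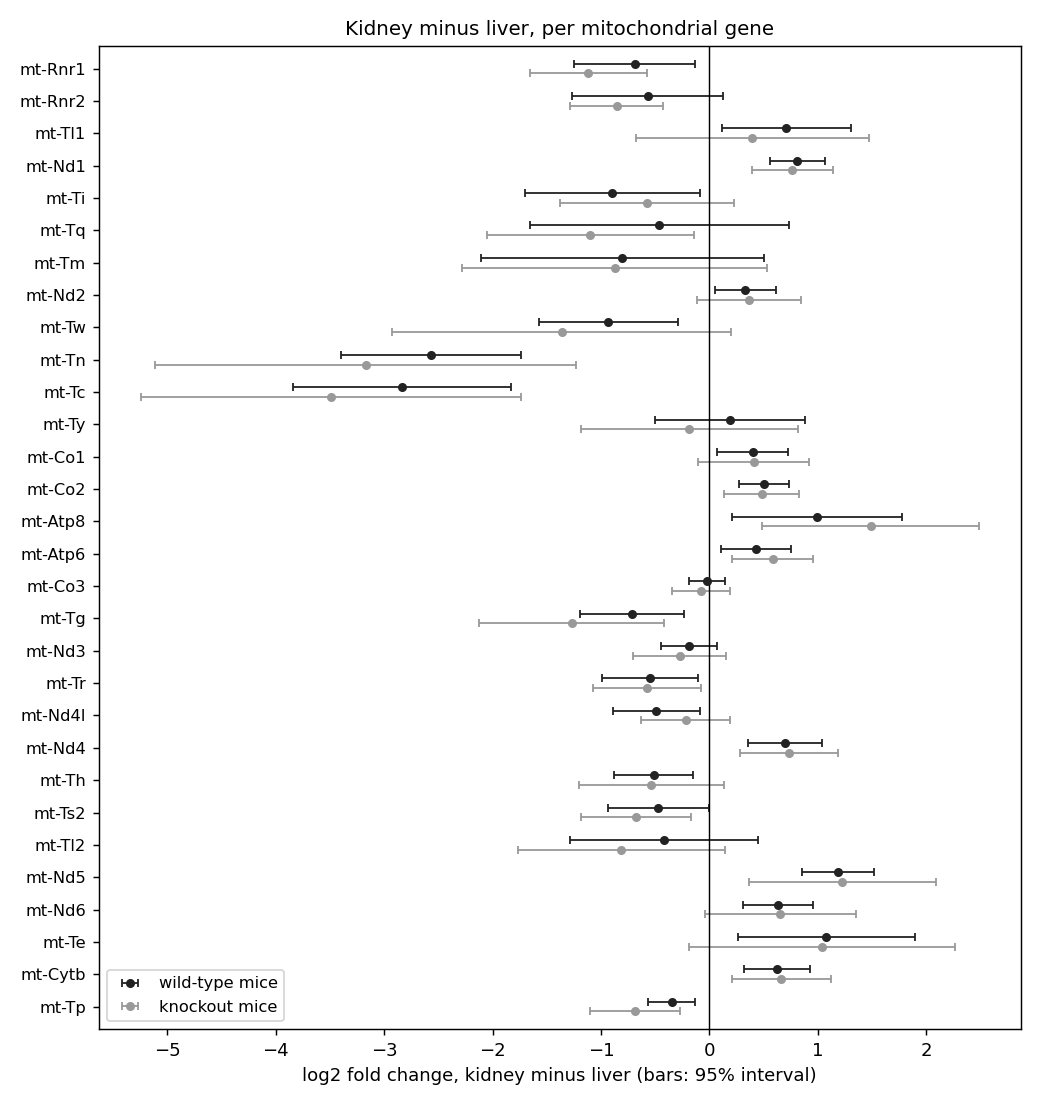
Log2 difference between kidney and liver for each tested mitochondrial gene (horizontal axis, log2; positive is higher in kidney) with its 95% interval, in wild-type and in knockout mice. The abundant mRNAs lie to the right of 0 and mt-Tn and mt-Tc far to the left, at -2.57 and -2.84 in wild type.

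Within the low set, mt-Co2, a core subunit of complex IV, was at 57.1, 72.7, 70.3, 70.7 and 56.7 CPM in wild-type kidneys and 54.8, 43.03, 41.6 and 45.1 in wild-type livers. The kidney of each of the 9 mice with both tissues was above its liver, and the log2 difference was 0.50 ± 0.11 (SE, adjusted p = 0.000712) in wild type and 0.48 ± 0.16 (SE, adjusted p = 0.0158) in knockout. mt-Atp6 of the ATP synthase gave 0.43 (adjusted p = 0.0192, lost without mouse 19) and 0.58 (adjusted p = 0.00774, lost without mouse 18). mt-Atp8 of the same complex, at 0.247 to 0.920 CPM in kidney and 0.121 to 0.495 in liver, gave 0.99 (adjusted p = 0.0236) and 1.49 (adjusted p = 0.00997). It failed the filter within liver and entered these fits through its kidney counts, the higher ones, so its calls are not read as a result. The wild-type call of mt-Atp8 was lost without mouse 19, 20 or 24 and, with mouse number as a block, its adjusted p was 0.0520. The other 3 had negative values: mt-Co3 -0.022 and -0.076, mt-Nd3 -0.19 and -0.28, and mt-Nd4l -0.49 and -0.22, of which mt-Nd4l in wild type was called (adjusted p = 0.0282, lost without mouse 19, 20, 23 or 24), and all turned positive with library totals.

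Shares within the summed 13 mRNAs do not depend on the scaling between libraries. In wild-type mice mt-Nd5 made up 5.17 ± 0.558% (SD, n = 5) of the mRNA counts in kidney and 3.44 ± 0.332% (n = 4) in liver, with no overlap. mt-Nd2 went the other way, 10.7 ± 0.342% in kidney and 12.7 ± 0.0564% in liver, and so did mt-Co3, 0.0648 ± 0.00462% and 0.0999 ± 0.0184%, both without overlap. In knockout mice the means were 5.04 ± 1.85% and 3.35 ± 0.812% for mt-Nd5 and 10.6 ± 1.09% and 12.3 ± 0.858% for mt-Nd2, but the tissues overlapped for each of the 13 genes. mt-Nd6 made up 3.44 ± 0.598% in wild-type kidney and 3.40 ± 0.828% in wild-type liver, a difference within its spread. mt-Nd6 lies opposite the 3′ end of mt-Nd5 and overlaps it by 14 bases. Whether strand was used in counting is not given, so reads from the opposite strand cannot be told apart from its own. The ratio of mt-Nd6 to mt-Nd5 counts was 0.547 to 0.824 in wild-type kidneys and 0.771 to 1.15 in wild-type livers.

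The rRNAs moved opposite to the abundant mRNAs on the TMM scale. mt-Rnr1, the RNA of the small mitochondrial ribosomal subunit, was at 512, 915, 669, 595 and 263 CPM in knockout kidneys and 473, 583, 439, 757 and 1013 in wild-type kidneys. Liver levels were 939.8, 1246, 1383, 1471 and 1318 CPM in knockouts and 1087, 1044, 752 and 1312 in wild type. Kidney was below liver in 9 of 9 mice, but the ranges of wild-type kidneys and livers overlapped. The log2 difference was -0.69 ± 0.25 (SE, adjusted p = 0.0287) in wild type, a call lost without mouse 19 or 20 and a sign that turned to 0.20 with library totals, and -1.12 ± 0.25 (SE, adjusted p = 0.00106) in knockout, which library totals left at -0.18 without a call. mt-Rnr2, the RNA of the large subunit, was at 554 to 1537 CPM in kidney and 896 to 1943 in liver. It gave -0.57 ± 0.31 (SE, adjusted p = 0.121) in wild type, which was called with mouse number as a block, without mouse 24 and by voom and turned to 0.32 with library totals, and -0.85 ± 0.20 (SE, adjusted p = 0.00144) in knockout, where library totals gave 0.089. Both rRNAs lie at the start of the heavy-strand unit, and the ratio of mt-Rnr1 to mt-Rnr2 counts was 0.659 to 0.865 in wild-type kidneys, 0.715 to 1.01 in livers and 0.361 in the kidney of knockout mouse 18, below every other library.

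Most tRNA counts came from mt-Tp, mt-Tc, mt-Tn and mt-Te of the light-strand unit, which held 75.3 to 86.2% of the tRNA counts of each library. The heavy-strand mt-Tl2 (leucine) had a median of 560 counts (104 to 953 over all libraries), beside 351 for mt-Tn and 454 for mt-Te, and each of the other 13 tRNAs had a median of at most 162. The sequences of mt-Tn and mt-Tc, which had the largest tissue differences, and of mt-Tp, which had the highest median count, are printed 5′ to 3′ from the GENCODE M21 transcripts (GRCm38), with the anticodon in capitals. mt-Tn (asparagine) lies at 5089 to 5159 and mt-Tc (cysteine) at 5192 to 5257 of chromosome M, neighbours on the minus strand with the light-strand origin of replication known to lie between them, and mt-Tp (proline) at 15356 to 15422, the first gene of the light-strand unit:
mt-Tn: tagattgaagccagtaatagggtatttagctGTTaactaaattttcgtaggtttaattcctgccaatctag
mt-Tc: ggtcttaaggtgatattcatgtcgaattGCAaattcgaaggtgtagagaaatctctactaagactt
mt-Tp: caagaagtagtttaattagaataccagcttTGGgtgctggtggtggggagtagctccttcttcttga
The anticodons GTT, GCA and TGG are at bases 32 to 34, 29 to 31 and 31 to 33. Because poly(A) selection does not target mature tRNAs, these counts are not read as levels of mature tRNA, and a precursor or a read from a neighbouring gene cannot be told apart from the tRNA itself.

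mt-Tn and mt-Tc had the largest tissue differences of all mitochondrial genes tested. mt-Tc was at 13.7, 2.30, 11.8, 17.9 and 2.61 CPM in knockout kidneys and 18.2, 18.7, 11.8, 8.10 and 7.69 in wild-type kidneys. The knockout livers were at 68.996, 16.1, 123, 157 and 173 CPM and the wild-type livers at 122, 139, 52.9 and 54.9. All wild-type livers lay above all kidneys, and among knockout livers that of mouse 14, at 16.1 CPM, lay inside the kidney range. The log2 difference was -2.84 ± 0.43 (SE, adjusted p = 0.000411) in wild type and -3.49 ± 0.78 (SE, adjusted p = 0.00250) in knockout. mt-Tn was at 8.17, 1.20, 6.39, 7.89 and 0.285 CPM in knockout kidneys and 7.49, 8.92, 5.95, 4.65 and 4.22 in wild-type kidneys. In livers it was at 29.4, 6.45, 47.9, 60.8 and 69.01 CPM in knockouts and 50.1, 54.8, 22.96 and 20.5 in wild type. Again liver was above kidney in 9 of 9 mice and only the liver of mouse 14 fell within the kidney range. The differences were -2.57 ± 0.37 (SE, adjusted p = 0.000164) and -3.17 ± 0.86 (SE, adjusted p = 0.00768), and with library totals they stayed negative, -1.68 and -2.23 for mt-Tn and -1.94 and -2.54 for mt-Tc. Per 10000 mRNA counts, a ratio free of the scaling, mt-Tc stood at 0.430 to 3.41 in kidneys and 3.80 to 63.5 in livers, and mt-Tn at 0.0683 to 1.46 and 1.53 to 25.3. On this scale no liver of either genotype reached down to the highest kidney.

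The other light-strand tRNAs did not share this size of difference. mt-Tp was at 40.4 to 110.3 CPM in kidney and 106 to 153 in liver, with a log2 difference of -0.35 ± 0.10 (SE, adjusted p = 0.00589) in wild type and -0.68 ± 0.19 (SE, adjusted p = 0.00541) in knockout, both turning positive with library totals (0.54 and 0.24). Per 10000 mRNA counts it stood at 9.69 to 18.1 in kidneys and 28.6 to 46.5 in livers, again without overlap. The divisor of this ratio, the mRNA counts, takes a larger share in kidney, so the gap is not separate evidence of more mt-Tp in liver. mt-Te (glutamic acid), next to mt-Nd6 on the same strand, was higher in kidney in 9 of 9 mice, at 1.08 ± 0.36 (SE, adjusted p = 0.0220) in wild type, a call lost without mouse 19, and 1.04 ± 0.55 (SE, adjusted p = 0.112) in knockout, where the block gave a call (adjusted p = 6.68e-05). mt-Ty (tyrosine), the neighbour of mt-Tc, gave 0.19 ± 0.32 (SE, adjusted p = 0.609) and -0.19 ± 0.46 (SE, adjusted p = 0.728), neither called, and the knockout value turned to 0.73 with library totals. mt-Tq (glutamine) gave -0.46 ± 0.56 (SE, adjusted p = 0.463) and -1.10 ± 0.44 (SE, adjusted p = 0.0371), the second called and lost without mouse 15 or 18, and library totals gave 0.42 and -0.18, neither called. Of the heavy-strand tRNAs, mt-Tg (glycine) was called lower in kidney in both genotypes, -0.71 ± 0.22 (SE, adjusted p = 0.00961) and -1.27 ± 0.40 (SE, adjusted p = 0.0102), but with library totals the values were 0.18 and -0.33, neither called (adjusted p = 0.470 and 0.442). mt-Tr (arginine) was also called lower in both, at -0.55 (adjusted p = 0.0268, lost without mouse 19 or 24) and -0.58 (adjusted p = 0.0364, lost without mouse 15, 16 or 18), and its sign turned with library totals in both (0.34 and 0.36). In wild type mt-Tw, mt-Ti and mt-Th (tryptophan, isoleucine and histidine) were called lower in kidney (-0.93, -0.90 and -0.51, adjusted p = 0.0115, 0.0438 and 0.0134) and mt-Tl1 (leucine) higher (0.71, adjusted p = 0.0306). The mt-Tw call was lost without mouse 22, that of mt-Th without mouse 20, that of mt-Tl1 without mouse 19, 20 or 23 and that of mt-Ti without mouse 19, 20, 22 or 23, and mt-Th turned positive with library totals (0.38). Library totals also ended the calls of mt-Tw and mt-Ti (-0.046 and -0.013, adjusted p = 0.891 and 0.974). In knockout mt-Tw was called with mouse number as a block (-1.74, adjusted p = 0.0181), and that block ended the wild-type call of mt-Ti (adjusted p = 0.0512). mt-Ts2 (serine) was called in knockout at -0.68 ± 0.24 (SE, adjusted p = 0.0181), a call lost without mouse 18, with 0.26 under library totals, while mt-Tm and mt-Tl2 (methionine and leucine) passed in neither genotype. mt-Tv, mt-Ta and mt-Tt failed the filter in every comparison. Without a filter mt-Ta, a light-strand neighbour of mt-Tn, was called lower in knockout kidney than in knockout liver (-2.04, adjusted p = 0.0384). These 3 genes stood at or below 0.867 CPM in each library.

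The knockout was compared with wild type within each tissue, which asks whether loss of macroH2A1.1 goes with a change in mitochondrial transcripts. No mitochondrial gene passed the test in either tissue by edgeR's quasi-likelihood test: 0 of 30 in kidney, where 0.00579% of 17269 genes were called (1 gene), and 0 of 28 in liver, where 0% of 14591 were called. At an unadjusted p under 0.05 the count of mitochondrial genes was also 0 in both tissues, beside 2.95% of all genes in kidney and 4.17% in liver. DESeq2 called 0 mitochondrial genes in each tissue (0 unadjusted), and limma voom with sample weights called 0 (1 unadjusted in each tissue). The test of whether the knockout effect differed between the tissues called 0 of 30, beside 0% of 18549 genes. At an unadjusted p under 0.05 it gave 0, beside 4.12% of all genes, and DESeq2 and voom called 0. A missing call does not show that the genotypes were alike, and the intervals give what these libraries allow.

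Most mRNA values were slightly below 0. In kidney 11 of the 13 mRNAs had a negative log2 difference and 2 a positive one, with a median of -0.10 beside 0.0071 over all genes. The median was -0.023 without mouse 18 and -0.17 without mouse 13. In liver 12 of the 12 tested were negative with a median of -0.12 beside 0.0043, and it was -0.042 without mouse 18 and -0.29 without mouse 13. All but mt-Nd6 come from the heavy-strand precursor, so the count of signs is not a count of independent results. For mt-Nd1 the 95% interval of the log2 difference was -0.38 to 0.12 in kidney and -0.42 to 0.23 in liver. For mt-Cytb it was -0.43 to 0.17 and -0.62 to 0.25, and for mt-Co1 -0.41 to 0.27 and -0.59 to 0.40. For mt-Nd5, the most variable of the abundant mRNAs among knockout libraries, it was wider, -0.86 to 0.72 and -0.77 to 0.51. Without mouse 13 the liver value of mt-Nd5 went from -0.13 to -0.50, with an adjusted p of 0.746. mt-Nd6 had a log2 difference of -0.33 in kidney (-0.93 to 0.27) and -0.37 in liver (-0.95 to 0.22). Of the low set, mt-Co2 had -0.12 and -0.11, mt-Co3 -0.10 and -0.060, mt-Nd3 -0.25 and -0.17, mt-Nd4l -0.014 and -0.30, and mt-Atp6 0.12 and -0.050.

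**Figure D4:**
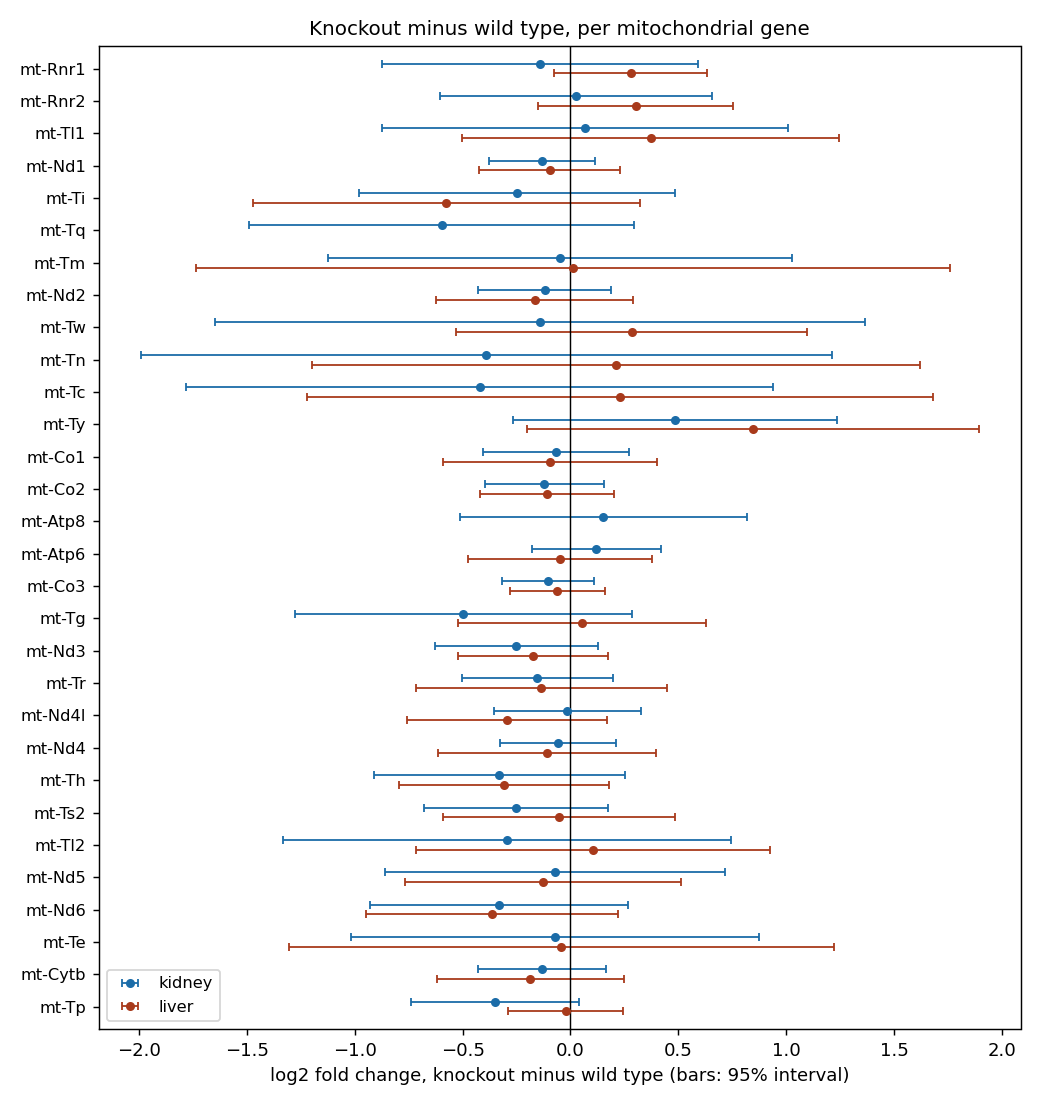
Log2 difference between knockout and wild type for each tested mitochondrial gene (horizontal axis, log2) with its 95% interval, in kidney and in liver. Every interval covers 0, and the widest is that of mt-Tn in kidney and that of mt-Tm in liver.

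The share of counts in mitochondrial mRNAs differed between knockout and wild type by -0.463 percentage points in kidney and -0.251 in liver. The kidney value was 0.0107 without mouse 18 and -0.877 without mouse 13, and the liver value -0.0299 without mouse 18 and -0.557 without mouse 13, so single knockout mice set its size. For the rRNAs the log2 differences were -0.14 and 0.027 in kidney and 0.28 and 0.30 in liver, with adjusted p-values of 0.999 and 0.9998 in the 2 tissues. Of 15 tRNAs tested in kidney 13 had negative values (median -0.25), and in liver 8 of 14 were positive (median 0.034). mt-Tp, the tRNA with the most counts in every kidney, gave -0.35 in kidney (-0.74 to 0.040) and -0.022 in liver (-0.29 to 0.25). mt-Tc gave -0.42 (-1.78 to 0.94) and 0.23 (-1.22 to 1.68), and mt-Tn -0.39 (-1.99 to 1.21) and 0.21 (-1.20 to 1.62). For the last 2 the intervals allow large differences in either direction.

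The mRNA levels of the knockout libraries varied more among themselves than those of the wild-type libraries for most genes. The coefficient of variation of the CPM was higher in knockout for 13 of 13 mRNAs in kidney (median 23.9% against 11.99%) and for 11 of 13 in liver (median 28.2% against 17.4%). As a summed share of counts, the mRNAs also varied more in knockout (19.8% against 11.3% in kidney, 31.5% against 16.8% in liver). The summed rRNA share did not (30.2% against 41.6% in kidney, 19.8% against 20.7% in liver). The 2 rRNAs differed when taken singly. In unscaled counts mt-Rnr1 varied slightly more in knockout kidney (35.4% against 31.5%) and mt-Rnr2 less (19.5% against 39.2%). In liver the counts of both were no less variable in knockout (15.9% against 15.8% and 23.4% against 17.1%). No difference in spread was tested. Spread was not computed over all genes, so the greater spread is not read as particular to mitochondrial mRNAs. All of them but mt-Nd6 share a precursor. Summed marker levels varied more in knockout for proximal tubule genes in kidney (SD 2242 against 687 CPM) and hepatocyte genes in liver (16137 against 2691). They varied less for endothelial and stromal genes (11.4 against 14.8 in kidney, 6.48 against 12.6 in liver). The same held for thick limb and distal tubule genes in kidney (392 against 537) and leukocyte genes in liver (31.3 against 35.1). Kidney spread was greater in knockout for podocyte and collecting duct genes (87.6 against 24.6) and leukocyte genes (7.34 against 6.48). Erythroid genes (256 against 139 in kidney, 900 against 778 in liver) and muscle and brown fat genes (5.94 against 1.81, 6.18 against 0.663) also varied more. Mouse 13 had the highest mt-Nd5 of its group in both tissues, at 5161 CPM in kidney and 2433 in liver. Mouse 14 had the lowest mt-Nd6, at 821 and 462 CPM, and the highest mt-Co2, at 84.1 and 57.7. In its kidney mt-Co1 made up 23.3% of the mRNA counts, against 31.04 to 33.4% in the other knockout kidneys. Its mt-Tn and mt-Tc were the lowest of the livers. The kidney of mouse 18 had the smallest mRNA share of the kidneys and the smallest tRNA share of all libraries. There mt-Tn was at 0.285 CPM and mt-Tc at 2.61, and the ratio of mt-Tc to mt-Tn counts was 9.15, against 1.68 to 2.44 in the other kidneys. The liver of mouse 18 did not share the low tRNA levels, with mt-Tn at 69.01 CPM and mt-Tc at 173, the highest of all libraries. Leaving out mice 14 and 18 together, an alternative chosen after seeing the data, gave 0 mitochondrial calls in both knockout comparisons and 15 in the comparison of knockout kidney with knockout liver.

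**Figure D5:**
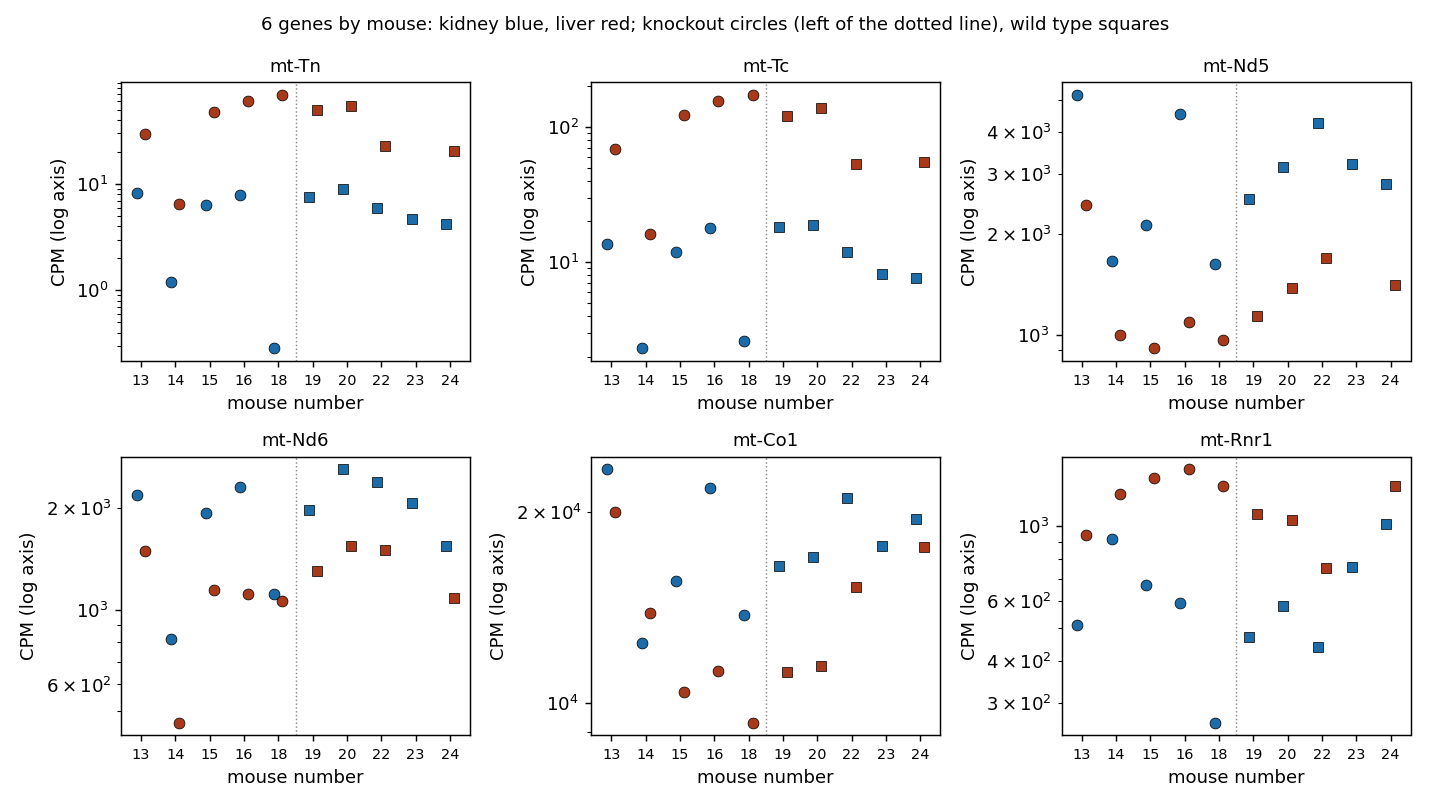
Levels of selected mitochondrial transcripts (CPM, log axis) in kidney and liver of each mouse, with mouse numbers on the horizontal axis and 1 point per library. mt-Tn and mt-Tc lie lower in kidney than in liver of every mouse with both tissues, and the kidney of mouse 18 is the lowest library for mt-Tn at 0.285 CPM.

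The nuclear genes that transcribe, process and translate the mitochondrial RNAs were read in 8 lists. In wild-type mice the calls in kidney against liver were 2 higher and 15 lower of 25 for transcription and genome maintenance, 2 higher and 14 lower of 26 for RNA processing and stability, 3 higher and 13 lower of 23 for RNA modification and 4 higher and 11 lower of 19 for mitochondrial aminoacyl-tRNA synthetases. They were 4 higher and 63 lower of 78 for mitochondrial ribosomal proteins, 1 higher and 11 lower of 17 for translation factors, 6 higher and 5 lower of 14 for regulators of mitochondrial biogenesis and 3 higher and 6 lower of 19 for nuclear-encoded partner subunits of the same respiratory complexes. Beside the 33.9% of all genes called lower in kidney, most members of the first 6 lists were lower on the TMM scale. With library totals most of these counts turned: they became 15 higher and 2 lower for transcription, 18 higher and 2 lower for processing, 15 higher and 1 lower for modification, 12 higher and 1 lower for the synthetases, 47 higher and 14 lower for ribosomal proteins, 12 higher and 0 lower for translation factors, 12 higher and 0 lower for biogenesis regulators and 19 higher and 0 lower for partner subunits. Over all genes, library totals called 12527 of 17428 higher in wild-type kidney and 2344 lower, so a majority of higher calls is not particular to these lists. The level of these lists between tissues therefore depends on the scaling, as it does for the mitochondrial rRNAs. In knockout mice the TMM-scaled counts were 2 higher and 14 lower of 25, 2 higher and 13 lower of 26, 3 higher and 11 lower of 23, 4 higher and 12 lower of 19, 3 higher and 60 lower of 78, 2 higher and 10 lower of 17, 5 higher and 5 lower of 14 and 2 higher and 9 lower of 19 in the same order. The higher calls among the biogenesis regulators include Perm1 in both genotypes, a gene that entered these fits through its kidney counts.

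Tfam, which packages mitochondrial DNA and starts its transcription, had a log2 difference between kidney and liver of -0.63 in wild type and -0.55 in knockout (adjusted p = 1.34e-05 and 4.65e-05), a sign that turned with library totals (0.26 and 0.39). Polrmt, the mitochondrial RNA polymerase, and Tfb2m, its initiation factor, had -0.015 and -0.0071 in wild type and 0.14 and 0.033 in knockout, none called, against 0.87, 0.88, 1.07 and 0.97 with library totals. Lrpprc, which with Slirp stabilizes mitochondrial mRNAs, was lower in kidney at -1.02 in wild type and -0.84 in knockout (adjusted p = 6.47e-07 and 2.72e-06), while library totals gave -0.13 and 0.10. Slirp was lower at -0.33 in wild type and -0.59 in knockout (adjusted p = 0.0166 and 0.00630) and turned positive with library totals (0.56 and 0.35). Ppargc1a, the coactivator PGC-1 alpha, was higher in kidney at 3.00 in wild type and 2.46 in knockout (adjusted p = 1.06e-11 and 1.55e-06) under both scalings. Esrrg, an orphan nuclear receptor, was at 5.23 in wild type and 5.04 in knockout, and Perm1, a regulator of oxidative genes, at 4.35 in wild type and 4.72 in knockout. Perm1 was at 0 to 0.761 CPM in liver and 5.24 to 8.22 in kidney. It thus entered these fits through its kidney counts, the higher ones, and its calls are not read as a result.

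The genes with the largest tissue differences in each list, all called at TMM scaling, are named here with the value under library totals where it turned. Hsd17b10, a subunit of mitochondrial RNase P that cuts the 5′ ends of the tRNAs, was lower in kidney at -1.28 in wild type and -1.62 in knockout, and Rexo2, an exonuclease for very short RNAs, at -1.28 in wild type and -1.32 in knockout. Nars2, which charges the tRNA of mt-Tn with asparagine, was lower at -1.44 in wild type and -1.66 in knockout (adjusted p = 1.92e-08 and 9.35e-10, with -0.55 and -0.72 under library totals). Mars2, the methionine enzyme, was higher at 1.23 in wild type and 1.36 in knockout. Among ribosomal proteins Mrpl15 was lower at -1.91 in wild type and -2.10 in knockout and Mrps6 higher at 1.79 in wild type, and Mrpl14 was lower at -1.87 in knockout. The nucleotide carrier Slc25a36 was higher at 4.72 in wild type and 4.63 in knockout and its relative Slc25a33 lower at -2.24 in wild type and -2.37 in knockout. The modification enzyme Nsun2 was lower at -1.28 in wild type and -1.26 in knockout. Trit1, which modifies tRNAs next to the anticodon, was lower at -1.04 in wild type (library totals -0.15) and Yrdc at -1.56 in knockout. The translation factors Mtif2 and Mtrf1 were lower at -0.86 and -0.81 in wild type and at -0.89 and -0.76 in knockout, and turned to 0.026, 0.081, 0.045 and 0.18 with library totals. The partner subunits Cox4i1 and Cox7a2 of complex IV were lower at -0.53 and -0.51 in wild type and turned to 0.36 and 0.38, and in knockout Cox7a2 and Atp5o of the ATP synthase were lower at -0.68 and -0.67 and turned to 0.27 and 0.28.

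In the knockout comparisons no member of the 8 lists was called by edgeR's quasi-likelihood test, DESeq2 or limma voom. At an unadjusted p under 0.05 edgeR gave 3 of 220 genes in kidney, 5 of 219 in liver and 3 of 220 for the difference between the tissues, DESeq2 gave 4, 5 and 4, and voom 2, 7 and 6. Over all genes the edgeR share was 2.95% in kidney, 4.17% in liver and 4.12% for the difference, which the lists did not exceed. The genes named next were picked by p within their lists and are not calls. In kidney the smallest p-values of their lists included Cdk5rap1, a tRNA-modifying enzyme, at a log2 difference of 0.39, Trmu at 0.19, Slc25a33 at 0.23, Dna2 at 0.23, Aars2 at 0.18, Pars2 at -0.26 and Mrps27 at -0.17. In liver they included Yrdc at 0.55, Mterf4, a factor for the mitochondrial ribosome, at -0.30, Slc25a33 at 0.35, Nars2 at 0.25, Tars2 at -0.21, Ppargc1a at 0.58 and Pprc1 at 0.42. The other genes with the 2 smallest p-values of a list, with the range of their log2 differences, were Hsd17b10, Fastkd3, Mrpl15, Gfm2, Cox14, Esrra, Yy1, Ndufs1 and Atp5o (-0.21 to 0.18) in kidney and Trmu, Elac2, Mtpap, Mrpl4, Mrps18b, Mtif3, Gfm2, Ndufb8 and Cox5b (-0.27 to 0.27) in liver. For the difference of the knockout effect between the tissues they were Dna2, Mterf4, Mtpap, Hsd17b10, Trmu, Yrdc, Fars2, Tars2, Mrpl20, Mrpl45, Mtif3, Tufm, Ppargc1a, Pprc1, Cox5b and Atp5o (-0.46 to 0.59). All had adjusted p-values of at least 0.9967. Tfam was at 0.063 in kidney and -0.033 in liver, Polrmt at 0.034 and -0.13, and Lrpprc at 0.072 and -0.12. Of the 78 mitochondrial ribosomal protein genes, 59 had values below 0 in kidney and 55 above 0 in liver, with medians of -0.051 and 0.063.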

How the data were processed

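Gene-level read counts of the 19 libraries were used as the authors deposited them (1 table of whole-number counts). Per the submitters' processing notes, reads were handled with Trim Galore, STAR, featureCounts and DESeq2 on GRCm38. Versions, strand setting and treatment of multi-mapping reads are not given in the sources used here. Genes whose counts sum to under 10 over all libraries are not in the table. Identifiers were matched without version to GENCODE M21 (26417 of 26506 matched, 89 did not).

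Each comparison was fitted over all genes with edgeR 4.0.16 (R 4.3.3): TMM scaling, filterByExpr with a minimum count of 10, a robust quasi-likelihood test, and Benjamini-Hochberg adjustment across every gene in the fit, with calls at an adjusted p under 0.05. The fits used only the groups compared, and the difference of the knockout effect between tissues used all 19 libraries. Standard errors are the log2 difference divided by the square root of F, and 95% intervals use the t distribution. Levels are CPM after 1 TMM scaling over the 19 libraries. Shares, sums over the genes and ratios are described without a test. Sequences were compared with blastn 2.17.0. Sequences printed are GENCODE M21 transcripts. Each fit was first checked on simulated data in which 200 genes were changed. Changes of 1.5-fold were recovered for 48.1% of such genes in the kidney knockout fit and 18.2% in the liver knockout fit. For the difference of the knockout effect the share was 5.41%. At 4-fold the shares were 96.8, 98.3 and 78.9%, so the knockout fits could miss small changes.

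The alternatives were DESeq2 1.42.0, limma 3.58.1 voom with sample weights, other scalings (DESeq2 size factors, library totals, nuclear genes only), other filters, leaving out single mice and mouse number as a block. For the tissue comparisons, deviations of same-numbered wild-type kidney and liver correlated at 0.288 to 0.339 over 12779 genes in 4 of 4 mice, so the number, which comes from the labels, was taken to pair them.

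All mitochondrial genes of the table are accounted for, all mRNAs, rRNAs and tested tRNAs are named, and of each nuclear list the 2 genes with the smallest p in a knockout comparison and the 2 with the largest tissue difference, besides Tfam, Polrmt, Tfb2m, Lrpprc, Slirp and Ppargc1a. The genes, lists and rule were chosen with earlier results of these data known.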

Additional observations from a re-analysis of the deposited data

Results flagged for a closer look

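In 188 groups of 4 or 5 libraries, 12 held a library whose gap to the nearest other exceeded Dixon's 95% critical value, and chance gives about 5% of groups. The groups share genes and libraries and are not independent, so their number is not read as an excess over chance. Both tissues of knockout mouse 14 were set apart by Gm28661, the chromosome 1 copy of mt-Co2, at 163 CPM in kidney (the next highest knockout kidney was at 104) and 112 in liver (next 84.8). mt-Co2 itself was at 57.7 CPM in the liver of that mouse (next 41.5), and mt-Co1 made up 23.3% of its mRNA counts in kidney (next lowest 31.0%). In the kidney of knockout mouse 18, mt-Tl2 was at 2.28 CPM (next lowest 13.97), the ratio of mt-Tc to mt-Tn counts was 9.15 (next highest 2.27) and the ratio of mt-Rnr1 to mt-Rnr2 counts was 0.361 (next lowest 0.685). In the liver of knockout mouse 13, mt-Nd5 was at 2433 CPM (next 1093), mt-Tl1 at 3.51 (next 1.45), and 2 pseudogene models on chromosome 2 were high: Gm13340, 97.6% identical to mt-Co1 over 1545 bases, at 27.3 CPM (next 3.40) and Gm13341 at 10.1 (next 1.68). In the kidney of wild-type mouse 24, mt-Ti was at 0.722 CPM (next 0.376). No cause was tested for any of these values.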

How the results depend on the processing

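With library totals in place of TMM, these log2 differences between kidney and liver turned positive in wild type: mt-Co3 0.87, mt-Nd3 0.70, mt-Nd4l 0.40, mt-Rnr1 0.20, mt-Rnr2 0.32, mt-Tg 0.18, mt-Th 0.38, mt-Tl2 0.47, mt-Tm 0.073, mt-Tp 0.54, mt-Tq 0.42, mt-Tr 0.34 and mt-Ts2 0.42. In knockout they were mt-Co3 0.86, mt-Nd3 0.66, mt-Nd4l 0.71, mt-Rnr2 0.089, mt-Th 0.40, mt-Ti 0.35, mt-Tl2 0.13, mt-Tm 0.048, mt-Tp 0.24, mt-Tr 0.36, mt-Ts2 0.26 and mt-Ty 0.73. The scaling itself moved the median of all genes toward kidney. Leaving out 1 mouse left 12 (without mouse 19) to 21 (without mouse 22) mitochondrial genes called between wild-type tissues, 14 without mouse 20, and 12 (without mouse 18) to 17 (without mouse 13) between knockout tissues. With mouse number as a block, 21 mitochondrial genes were called between wild-type tissues, where mt-Ti and mt-Atp8 were lost and mt-Rnr2 was gained (-0.70, adjusted p = 0.0139), and 20 between knockout tissues, where mt-Nd2, mt-Tw, mt-Nd6 and mt-Te were gained. The block gave 0 calls for the difference of the knockout effect. In knockout mice only the number in the labels links kidney to liver: correlations of same-numbered tissues were 0.0934 to 0.483, and 2 of 5 kidneys correlated best with their own number. No alternative called a mitochondrial gene in a knockout comparison (20 alternatives in kidney, 19 in liver, 20 for the difference between tissues). Over all genes DESeq2 called 15 in kidney, 42 in liver and 11 for the difference between tissues, and voom 7, 5 and 1, against 1, 0 and 0. How far depth limits the genes with few counts (mt-Atp8 and most tRNAs) was not tested.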
